A study of Caenorhabditis elegans with 2 samples.

Results

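Transfer RNA (tRNA) genes that lie wholly inside the body of a protein-coding gene, on either strand, are described here for the DNA-associated zinc-finger protein LIR-1 of Caenorhabditis elegans. They were defined by the Ensembl annotation of the WBcel235 assembly alone. No measured value entered the rule, but earlier results of these data were known when the members were chosen. Of 612 nuclear tRNA genes, 290 (47.4%) were nested in this way and 322 lay outside protein-coding genes. The 290 lay in 228 host genes, of which 182 held 1 nested tRNA gene, 32 held 2 and 14 held 3 to 5. Nested genes lay on the strand of their host in 166 cases and on the opposite strand in 123, and 1 gene had hosts on both strands. Introns held 283 of them, and 7 overlapped an exon of a protein-coding gene. Their lengths ran from 64 to 122 bp, with a median of 73 bp.

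The study measured chromatin immunoprecipitated with LIR-1 by sequencing in 2 libraries, biological replicates 1 and 2 of a single group. The animals were of strain RW12318, in which a TY1::EGFP::3xFLAG tag had been put by CRISPR into lir-1 on chromosome II, so every animal carried the tag. They were whole young adults at 63 hours, grown from L1 larvae starved after bleaching. Sonicated chromatin was pulled down through the tag with anti-GFP antibody. There was no second condition, and animals without the tag were not analysed here. A mixture of tissues was read at once, so more cells with LIR-1 at a place and more LIR-1 there per cell cannot be told apart. The deposited peak lists carry no read totals, so the depth is unknown.

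RNA polymerase III makes tRNAs. Its promoter at these genes is internal: TFIIIC binds a B box near the 3′ end of the gene and an A box near the start, places TFIIIB just upstream, and TFIIIB recruits the polymerase, which stops at a run of T soon after the gene. A tRNA gene in an intron can therefore be transcribed from its own promoter while polymerase II crosses it from the promoter of the host.

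The authors' conservative set held 1209 peaks that both libraries gave at an irreproducible discovery rate (IDR) of 0.01 or lower, and such a peak is called a site. A longer ranked list of 36484 peaks of any IDR came from both libraries together, and a peak of that list where there was no site is called sub-threshold. A gene had a site or peak when a summit lay in it or within 100 bp. Lists from the reads of 1 library alone held 828 peaks for replicate 1 and 580 for replicate 2. Signal is the score the authors' peak caller gave each peak. Shares carry exact binomial (Clopper-Pearson) 95% intervals, which treat genes as independent. Identical copies and neighbours are not independent. The labels and headers do not say how reads that match several copies were placed, so which copy of a repeated gene holds a site is uncertain.

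Nested tRNA genes come as unique sequences and as copies of repeated ones, and examples of both kinds that had a site are shown from RefSeq on WBcel235, read along the tRNA. Capitals mark matches to the A box letters TNGCNNAG and the B box letters GTTCNANNC. The first 3 genes have no identical copy. The threonine and proline genes, picked after their values were seen, stand for families whose nested copies differed in signal.
K06A4.t1, alanine (chrV:9503562-9503633, plus strand): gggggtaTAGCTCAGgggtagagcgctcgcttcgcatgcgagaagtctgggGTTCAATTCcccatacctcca
K11E4.t4, lysine (chrX:13729905-13729977, plus strand): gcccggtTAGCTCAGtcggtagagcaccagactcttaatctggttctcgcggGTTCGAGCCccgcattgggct
Y54G2A.t2, aspartate (chrIV:2802337-2802408, plus strand): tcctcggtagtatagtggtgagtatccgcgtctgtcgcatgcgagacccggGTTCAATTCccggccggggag
Y39A1A.t1, threonine, shared by its 15 copies (chrIII:10624742-10624813, minus strand): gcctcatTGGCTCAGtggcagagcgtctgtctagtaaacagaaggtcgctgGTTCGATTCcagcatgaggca
W09D6.t2, proline, shared by its 24 copies (chrIII:11066848-11066919, minus strand): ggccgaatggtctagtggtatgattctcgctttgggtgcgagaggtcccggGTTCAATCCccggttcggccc
The B box letters lie near the 3′ end of each gene, and the A box letters were matched in K06A4.t1, K11E4.t4 and Y39A1A.t1.

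The 9 nested copies of the threonine gene are identical within the gene and differ outside it. For each the 40 bases before the gene are given in lower case and its first 10 bases in capitals, so that the shared and the unshared sequence stand side by side.
Y39A1A.t1, site (chrIII:10624804-10624853, minus strand): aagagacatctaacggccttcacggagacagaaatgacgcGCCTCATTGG
ZK563.t1, site (chrX:3371484-3371533, minus strand): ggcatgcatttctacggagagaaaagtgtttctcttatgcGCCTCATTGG
F25F6.t2, site (chrX:4444974-4445023, plus strand): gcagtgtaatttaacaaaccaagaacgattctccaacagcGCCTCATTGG
W02G9.t1, sub-threshold peak (chrV:2664729-2664778, minus strand): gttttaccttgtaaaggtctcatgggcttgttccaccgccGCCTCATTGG
W02G9.t2, sub-threshold peak (chrV:2673970-2674019, plus strand): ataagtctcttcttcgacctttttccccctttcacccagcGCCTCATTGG
ZK994.t3, sub-threshold peak (chrV:8496166-8496215, minus strand): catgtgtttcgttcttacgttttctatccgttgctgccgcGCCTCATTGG
R11B5.t1, sub-threshold peak (chrX:2528002-2528051, plus strand): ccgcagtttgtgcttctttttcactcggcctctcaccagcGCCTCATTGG
F36D4.t2, no peak (chrV:9407102-9407151, minus strand): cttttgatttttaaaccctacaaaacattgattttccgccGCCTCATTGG
R04D3.t5, no peak (chrX:13283699-13283748, minus strand): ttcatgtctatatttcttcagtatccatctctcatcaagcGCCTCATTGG
Outside the capitals no copy has the same 40 bases as another among these 9, while their peaks range between a site of signal 103.3 and no peak.

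At 3 places a single summit lay between a pair of nested tRNA genes, and at the strongest site of all the summit lay before the gene. These stretches are given with the 11 bases round the summit in capitals. In the first and second, the tRNA genes point away from each other, and in the third both point the same way.
between W09D6.t2 and W09D6.t1 (chrIII:11066920-11067026, plus strand): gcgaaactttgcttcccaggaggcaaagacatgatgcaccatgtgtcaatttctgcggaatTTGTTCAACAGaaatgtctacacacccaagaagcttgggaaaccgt
between Y105C5B.t3 and Y105C5B.t2 (chrIV:15933233-15933352, plus strand): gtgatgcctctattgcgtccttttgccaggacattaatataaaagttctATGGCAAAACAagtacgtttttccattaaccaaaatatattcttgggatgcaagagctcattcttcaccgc
between F15G9.t1 and F15G9.t2 (chrX:9743661-9743746, plus strand): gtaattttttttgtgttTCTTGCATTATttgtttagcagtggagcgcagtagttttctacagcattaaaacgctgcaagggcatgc
upstream of F41D9.t3 (chrX:8404439-8404498, plus strand): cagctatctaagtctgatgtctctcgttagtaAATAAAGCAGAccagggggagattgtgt
None of these 4 summits was on a tRNA gene.

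LIR-1 sites were found at 56 of the 290 nested tRNA genes (19.3%, interval 14.9 to 24.3). For tRNA genes outside protein-coding genes the share was 75 of 322 (23.3%, interval 18.8 to 28.3), and the intervals overlap widely. Away from tRNA genes the bodies of the same hosts had few sites: of 5846 windows of 273 bp, the length of a median tRNA gene with 100 bp on either side, 10 (0.171%) held a summit. Windows whose central part, without the 100 bp on either side, overlapped no exon of a protein-coding gene stood at 0.216%. No test of the difference between nested and outside genes was made.

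Both replicates gave this order relative to the hosts. In the list of replicate 1 alone, 28 nested tRNA genes had a peak (9.66%, interval 6.51 to 13.7), against 14.3% of outside tRNA genes and 0.120% of host windows. In the list of replicate 2 alone, 31 nested tRNA genes had one (10.7%, interval 7.38 to 14.8), against 9.94% of outside tRNA genes and 0.0342% of host windows. Nested genes were thus below outside genes in the first list and above them in the second, while both lists put nested genes far above the windows of their hosts. With any peak of the ranked list, 206 nested tRNA genes (71.0%, interval 65.4 to 76.2) were marked, against 66.8% of outside tRNA genes and 9.89% of host windows.

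**Figure D1:**
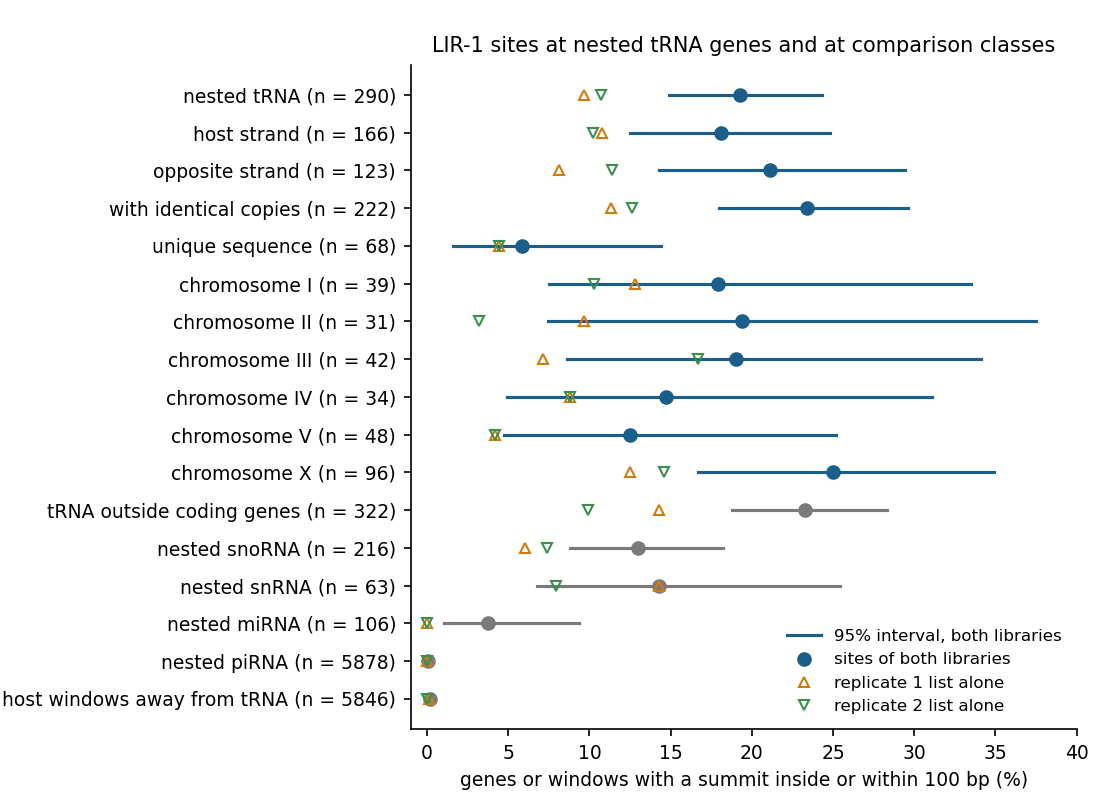
Share of genes or windows (x axis, %) with a LIR-1 summit inside or within 100 bp, for nested tRNA genes and their classes (blue) and for comparison classes (grey); circles with lines are sites of both libraries with exact 95% intervals, triangles the list of each replicate alone. Nested tRNA genes stand at 19.3%, outside tRNA genes at 23.3% and host windows at 0.171%.

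Within the hosts, LIR-1 sites were packed at the nested genes. Of 65 site summits in host bodies, 53 (81.5%) lay in or within 100 bp of a nested tRNA gene, and these stretches made up 4.41% of the host length. That is 0.676 sites per kb in 78.3 kb of tRNA gene windows, against 0.00707 per kb in the other 1697 kb of the hosts. In the ranked list, where most peaks are weak, the same windows held 204 of 834 summits (24.5%), or 2.60 per kb against 0.371 per kb. The 56 genes with a site used 53 summits, because 3 summits each served a pair of genes.

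Other small RNA genes nested in protein-coding genes, counted by the same rule, gave a range of shares. Nested snRNA genes, whose products act in splicing, stood at 9 of 63 (14.3%, interval 6.75 to 25.4). Nested snoRNA genes, whose products guide RNA modification, stood at 28 of 216 (13.0%, interval 8.79 to 18.2). For nested miRNA genes it was 4 of 106 (3.77%), and for nested piRNA genes 3 of 5878 (0.0510%). The tRNA share of 19.3% was above all 4 of these, with intervals that overlap those of snRNA and snoRNA genes. In the list of replicate 1, snRNA genes stood at 14.3%, above the 9.66% of tRNA genes, and snoRNA genes at 6.02%. In that of replicate 2 they stood at 7.94% and 7.41%, and no miRNA gene was in either list.

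The strongest nested sites lay in hosts of many kinds, and 10 of the 20 strongest were on the X chromosome. An asparagine gene, F41D9.t3 (chrX:8404499-8404571), had 66.0 in replicate 1 and 60 in replicate 2, and 132.7 with both libraries. It sits in an intron of sulp-3, an anion transporter gene, opposite to it, and its summit was 23 bases before the gene. The next was F47G6.t1 (arginine, chrI:1447138-1447210) in spe-15, which encodes a myosin needed for spermatogenesis, with 52.7 and 67.3 in the replicates and 127.2 together. F15G9.t1 and F15G9.t2, both alanine genes inside the hemicentin gene him-4, shared a site with 80.1 and 45.9 in the replicates and 127.1 together. At that pair replicate 1 was far above replicate 2, while at F47G6.t1 replicate 2 was the higher.

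C28G1.t1, a glutamate gene on X in C28G1.2, overlaps an exon of a protein-coding gene. It had 53.3 and 61.6 in the replicates and 125.8 together. The methionine gene C02F12.t1 in C01C4.3 had 41.1 and 78.2, with 112.1 together, a wider gap between replicates than that at him-4, and in the other direction. T04F8.t1, a second asparagine gene, lies in sto-4, a stomatin gene, and had 51.8 and 58.2, with 110.7 together. The proline pair W09D6.t1 and W09D6.t2 in rsa-2, whose product acts in spindle assembly, shared a site with 45.3 and 61.6, and 105.6 together. K06A4.t1, the alanine gene of unique sequence in the sugar transporter gene swt-5, had 43.8 and 67.0, with 105.1 together. Replicate 2 was the higher at each of these 5 sites.

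The remaining 10 of the 20 strongest had signals between 92.0 and 104.5. Y82E9BR.t1 (glycine) stood at 104.5, with 51.9 and 53.2 in the replicates. F38G1.t2 (aspartate, in egl-17, a fibroblast growth factor gene) stood at 103.4, with 48.0 and 49.8. W09G10.t1 (histidine, in the collagen gene col-72) and Y39A1A.t1 (threonine, in the checkpoint gene hpr-9) both stood at 103.3, and replicate 1 was the higher at W09G10.t1 (61.7 against 41.7) and the lower at Y39A1A.t1 (47.5 against 56.6). T03G6.t1 (glycine), F53F8.t1 (cysteine), K02D7.t1 (aspartate, in grl-26), C06G1.t1 (histidine), T21B4.t1 (isoleucine, in the collagen gene col-85) and C02B4.t2 (tyrosine, in the nuclear receptor gene nhr-17) followed, at 96.5, 96.4, 95.7, 93.8, 92.2 and 92.0. No single amino acid made up the top of the list.

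Signal at the nested sites was moderate for this series. It ran from 48.8 to 133, with a median of 81.0 and quartiles of 73.3 and 98.2, against a median of 85.2 at outside tRNA genes and 86.4 over all 1209 sites. The strongest nested site ranked 208 of 1209, and 23 of the 56 nested genes had a site above the median of all sites. In the ranked lists of the single replicates the 56 genes ran from 27.2 to 80.1 with a median of 40 in replicate 1, and from 29.8 to 78.2 with a median of 43.4 in replicate 2. The larger value was a median of 1.16 times the smaller, and at most 2.01 times. Replicate 1 was the higher at 21 genes and replicate 2 at 34. The lists past a threshold in 1 replicate alone held 17 of the 56 genes in both, 8 in replicate 1 only, 10 in replicate 2 only and 21 in neither. The median signal was 104 for the 17 and 70.0 for the 21.

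**Figure D2:**
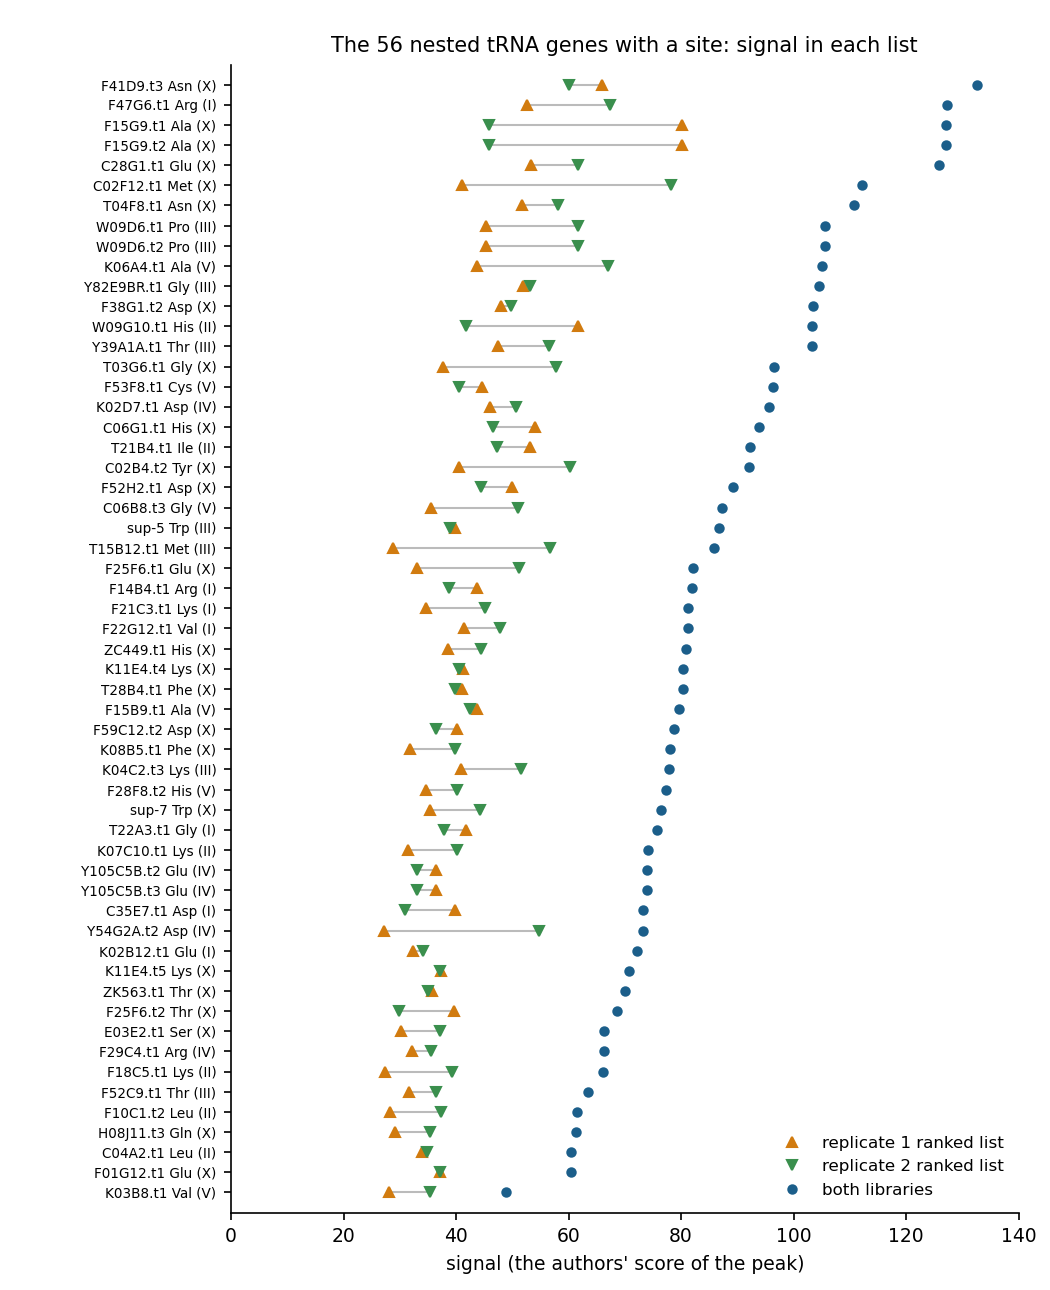
Signal (x axis, the authors' score) at each of the 56 nested tRNA genes with a site, named with amino acid and chromosome and ordered by the signal of both libraries together; triangles show the ranked list of each replicate, joined by a line, and circles both libraries. Signal of both libraries runs from 48.8 to 133 and the order of the replicates changes from gene to gene.

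Summits lay mostly inside the nested gene. Of the 56 genes, 41 (73.2%) had the summit in the gene, 12 (21.4%) had it upstream and 3 (5.36%) had it downstream. These counts are over genes, so a summit shared by a pair counts for each of its genes. Counted from the first base of the gene as 1, the median position was 18, with quartiles of 1.00 and 33.2, a lowest of -67 and a highest of 95. The A box letters began at a median of base 8 and the B box letters at base 53, and the median and upper quartile of the summits lay between these starts. The median moved with the library: without replicate 1 it was base 6, before the A box start, and without replicate 2 it was base 19. Of the 75 outside tRNA genes with a site, which used 69 summits, 44 (58.7%) had the summit inside. It was upstream at 25 and downstream at 6, with a median position of 22. Sonicated fragments are far longer than a tRNA gene, so a summit does not place the protein to the base.

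**Figure D3:**
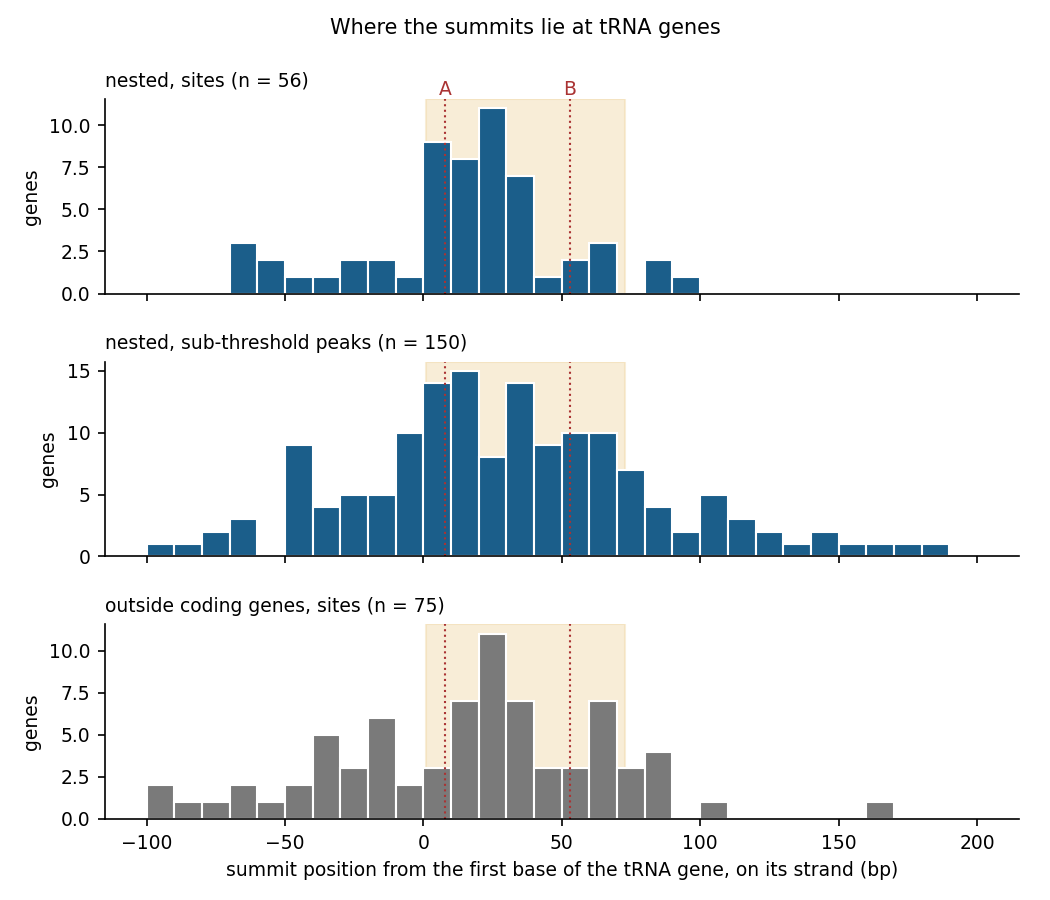
Number of tRNA genes (y axis) by position of the summit (x axis, bp from the first base of the gene, along its strand), for nested genes with a site, nested genes with a sub-threshold peak and outside genes with a site; shading marks a gene of median length and dotted lines the median starts of the A and B box letters. Of the 56 nested genes with a site, 41 have the summit inside the gene.

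The shares with a site were not clearly apart by strand relative to the host, with wide intervals, and a difference was not tested. On the strand of the host, 30 of 166 nested genes had a site (18.1%, interval 12.5 to 24.8), and opposite to it 26 of 123 (21.1%, interval 14.3 to 29.4). Either interval holds the other share. In the list of replicate 1 the shares were 10.8% and 8.13%, and in that of replicate 2 they were 10.2% and 11.4%, so the replicates put the strands in different orders. Median signal at a site was 80.3 for genes on the host strand and 81.6 for genes opposite. The summits were inside the gene at 21 of the 30 and at 20 of the 26, at median positions of 22 and 13. A peak of any IDR was present at 68.7% and 74.8%. Only 1 gene, the proline gene Y71H2AM.t1, had hosts on both strands, cox-6B and tmem-132, and it had no peak.

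Copy number showed a wider split among nested genes than the strand did. Copies were counted by exact match over the annotated length, so the unique class may include genes nearly identical to another. Genes with an identical copy elsewhere had a site in 52 of 222 cases (23.4%, interval 18.0 to 29.6), and genes of unique sequence in 4 of 68 (5.88%, interval 1.63 to 14.4). These intervals do not overlap. The list of replicate 1 had 25 and 3 of these genes (11.3% and 4.41%), and that of replicate 2 had 28 and 3 (12.6% and 4.41%), so both replicates gave the same order, with intervals that overlap in either list. They also overlap at an IDR of 0.05, where genes with copies stood at 32.9% (interval 26.7 to 39.5) and unique genes at 19.1% (interval 10.6 to 30.5), and in the authors' other thresholded set. A peak of any IDR was present at 75.2% of genes with copies and at 57.4% of unique genes. Among outside tRNA genes the split was smaller in the conservative set, with 60 of 247 genes with copies (24.3%, interval 19.1 to 30.1) and 15 of 75 unique genes (20%, interval 11.6 to 30.8). It was not smaller in every list. Outside genes with copies and unique outside genes stood at 16.2% and 8% in the list of replicate 1, 10.1% and 9.33% in that of replicate 2, and 72.1% and 49.3% with any peak of the ranked list. Unique nested genes thus stood at 5.88%, and unique outside genes at 20%, with intervals that overlap. Whether nested and outside genes differ in the effect of copy number was not tested.

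Among nested genes with copies the share did not climb with their number beyond the intervals. It was 18.8% at 2 to 4 copies, 21.1% at 5 to 9, 26.0% at 10 to 14, 24.1% at 15 to 19 and 25% at 20 or more. The share at 2 to 4 copies rested on both libraries together: 1 of these 32 genes (3.12%) was in the list of replicate 1 and 0 in that of replicate 2, close to the 4.41% of unique genes in either list. At 10 to 14 copies the replicate lists gave 16% and 18%. The B box letters were present in 217 of 222 genes with copies and 62 of 68 unique genes, and among nested genes with those letters the shares with a site were 23.5% and 6.45%. The share of the 31-mers in a gene with its 100 bp flanks that occur once in the genome was also counted. This share had a median of 77.0% for genes with copies and 89.5% for unique genes. It was 77.5% at genes with a site, 78.0% at genes with a sub-threshold peak and 77.4% at genes with neither. The lowest values differed more, at 73.2% for genes with a site, 48.3% for genes with a sub-threshold peak and 0% for genes with neither. Under 73.2% lay 10 genes with a sub-threshold peak and 19 with neither. The part that reads matching several places play in the split was not tested.

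**Figure D4:**
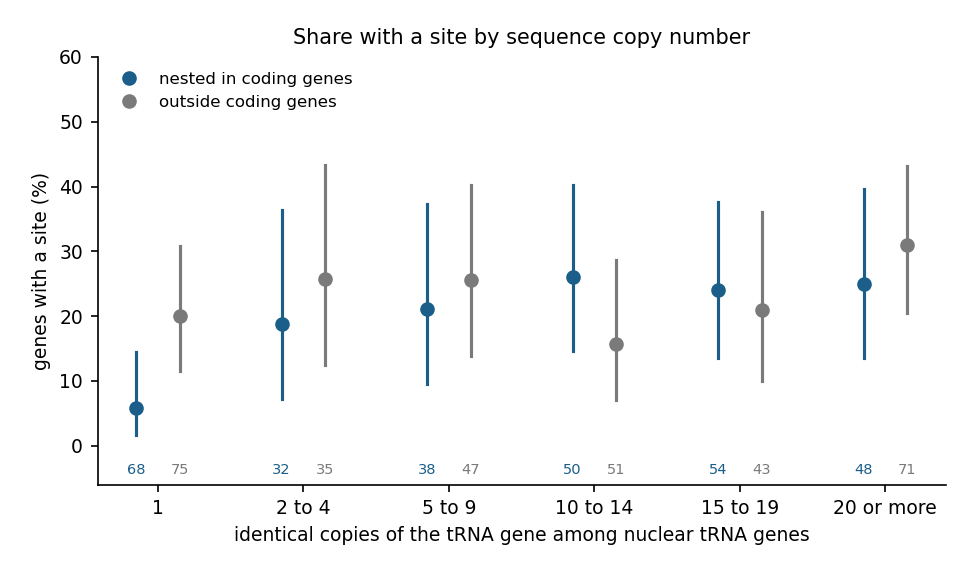
Share of tRNA genes with a site (y axis, %) by the number of identical copies among nuclear tRNA genes (x axis), for nested genes (blue, left) and outside genes (grey, right), with exact 95% intervals and the number of genes under each point. Nested genes of unique sequence stand at 5.88%, and the other nested classes between 18.8% and 26.0%.

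All 4 unique nested genes with a site lay on the strand of their host, 4 of 42 such genes (9.52%, interval 2.66 to 22.6), and 0 of 26 unique genes opposite to the host had one (interval up to 13.2). The intervals overlap. The list of replicate 1 held 2 and 1 of these genes, and a peak of any IDR was less common on the host strand, at 54.8% against 61.5% opposite. K06A4.t1 was the strongest, at 105.1. F21C3.t1 (lysine) had 34.7 and 45.2 in the replicates and 81.2 together. K11E4.t4, a lysine gene in pix-1, which encodes an exchange factor for small GTPases, had 41.3 and 40.6, with 80.3 together. Y54G2A.t2 (aspartate) had 27.2 and 54.8, with 73.3 together, and its replicates differed 2.01-fold. In all 4 the summit was inside the gene, between base 23 and base 56.

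The share was highest on the X chromosome, which carries 96 of the 290 nested genes. On X, 24 had a site (25%, interval 16.7 to 34.9), and on the autosomes 32 of 194 (16.5%, interval 11.6 to 22.5). Replicate 1 gave 12.5% and 8.25%, and replicate 2 gave 14.6% and 8.76%. The autosomes stood at 7 of 39 on I (17.9%), 6 of 31 on II (19.4%), 8 of 42 on III (19%), 5 of 34 on IV (14.7%) and 6 of 48 on V (12.5%), each with an interval that holds the share on X, that of V only just, since it ends at 25.2. The autosomes ran from 4.17% to 12.8% in the list of replicate 1 and from 3.23% to 16.7% in that of replicate 2. Outside tRNA genes stood at 25% on X and 21.1% on the autosomes. With any peak of the ranked list, nested genes were at 71.9% on X and 70.6% on the autosomes. Among genes with copies alone, X stood at 28.8% and the autosomes at 20.4%. The order by chromosome was not stable: X was not the highest at an IDR of 0.05, among the stronger 50% of sites, or in the list of either replicate alone.

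Chromosome IV had 5 nested genes with a site. K02D7.t1 (chrIV, in grl-26) was the strongest, at 95.7, with 46.1 and 50.7 in the replicates. Like C28G1.t1, it is among the 7 genes that overlap an exon of a protein-coding gene, of which these 2 had a site. The glutamate genes Y105C5B.t2 and Y105C5B.t3 in the chemoreceptor gene srv-16 shared a site of 73.9, with 36.4 and 33.1. Y54G2A.t2 stood at 73.3. F29C4.t1 (arginine, in the collagen gene col-99) stood at 66.3, with 32.1 and 35.6.

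By amino acid, the shares of nested genes with a site ran widely on small numbers. Histidine genes had a site in 4 of 7 cases, glutamate genes in 6 of 12 and aspartate genes in 6 of 13. Lysine stood at 6 of 26, alanine and threonine at 4 of 15 each, glycine at 4 of 27, arginine at 3 of 21 and proline at 2 of 22. Isoleucine had 1 of 18 and serine 1 of 15. These counts are over genes, and those of glutamate, alanine and proline each include a pair that shares a summit. Outside protein-coding genes histidine had 0 of 13 and isoleucine 5 of 11, so the order was not the same there. The 3 nested genes with no amino acid named in RefSeq had no peak.

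The peaks listed at copies identical in sequence were not alike in signal. How reads that match several copies were placed is not known, so which copy holds a site is uncertain. Of 42 sequences with 2 or more nested copies, 27 had a site at some of the nested copies and not at others, 14 had none, and 1, a histidine sequence, had a site at all. Of the 18 sequences with 5 or more nested copies, 16 had at least 1 site. The isoleucine sequence with most nested copies, 13, had a site at T21B4.t1 (92.2), sub-threshold peaks at 9 and no peak at 3. Among its other copies C27A2.t1, T16D1.t1 and Y57A10B.t1 had peaks of 34.4, 42.4 and 53.8. The glycine sequence with 12 nested copies had its only nested site at Y82E9BR.t1 and sub-threshold peaks at 8, with 44.6 at C12C8.t6 and 47.7 at C12C8.t4, and no peak at C12C8.t1. The lysine sequence with 12 nested copies had 2 sites, 1 of them at K07C10.t1 (74.2, with 31.4 and 40.2 in the replicates), and 9 sub-threshold peaks, with 40.3 at F56F4.t2, 34.2 at C17D12.t1 and 60.9 at C17D12.t2.

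The threonine copies shown above spanned the same range. Y39A1A.t1 stood at 103.3, ZK563.t1 at 70.0, with 35.7 and 35.0 in the replicates, and F25F6.t2 at 68.7, with 39.6 and 29.8. Sub-threshold peaks of 63.5, 61.1, 46.1 and 24.9 lay at W02G9.t1, ZK994.t3, R11B5.t1 and W02G9.t2. F36D4.t2 and R04D3.t5 had no peak. The aspartate sequence had the most sites of any family with 5 or more nested copies, 5 of 10, and the glutamate sequence had 4 of 7, while an arginine sequence with 5 nested copies and a leucine sequence with 7 had none. Y105C5B.t2 and Y105C5B.t3, both of the glutamate sequence, shared a summit. Outside copies of these sequences had a site at 2 of 11 (aspartate), 2 of 8 (glutamate), 0 of 5 (arginine) and 1 of 2 (leucine). Across all nested genes, the 50 bases before the gene had a median A+T content of 54.0% at genes with a site (quartiles 48.0 and 58.5), 56% at genes with a sub-threshold peak and 62.0% at genes with neither (quartiles 54.0 and 66.5). Outside tRNA genes had 56%, 58.0% and 62.0% in the same order.

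**Figure D5:**
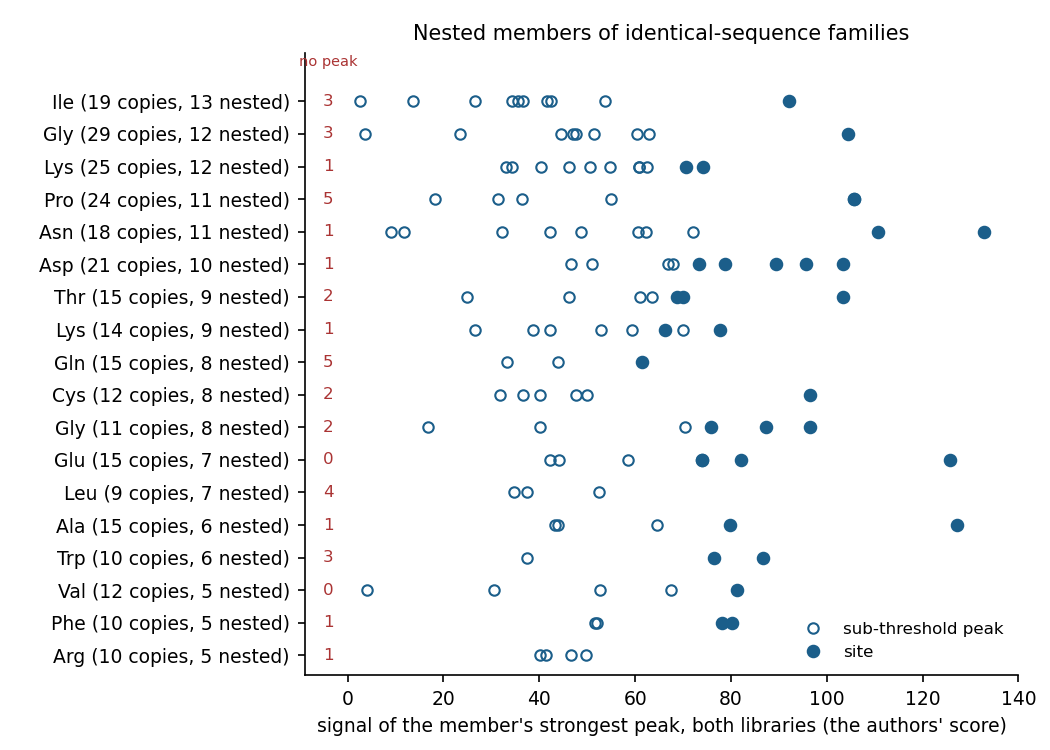
Signal of the strongest peak (x axis, the authors' score, both libraries) at each nested copy of the 18 sequences with 5 or more nested copies; filled circles are sites, open circles sub-threshold peaks, and the red number counts copies with no peak. Within a family of identical sequence, copies run between no peak and a site, as in the aspartate family with 5 sites of 10. How reads that match several copies were placed is not known.

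Most nested genes without a site had a weaker peak. Of the 290, 150 (51.7%, interval 45.8 to 57.6) had a sub-threshold peak only and 84 (29.0%) had none, against 140 of 322 (43.5%) and 107 (33.2%) of outside tRNA genes. The sub-threshold peaks had a median signal of 44.0 (quartiles 34.9 and 54.9, range 2.60 to 75.3), against 28.1 for ranked peaks in host windows and 28.4 for the whole ranked list. Their summits lay inside the gene at 85 of 150, before it at 40 and after it at 25, with a median position of 27. Their median IDR was 0.33, with 30 at 0.05 or lower and 54 above 0.5.

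Some sub-threshold peaks came close to the sites in signal. F33G12.t1, an isoleucine gene without an identical copy, had 42.8 and 28.1 in the replicates and 75.3 together, at an IDR of 0.0113, just outside the limit. Of the 31-mers in this gene with its 100 bp flanks, 77.5% occurred once in the genome. The median was 89.5% for unique nested genes and 77.0% for nested genes with copies. W06D4.t1 (asparagine, in hgo-1) stood at 72.1, R04E5.t6 (glycine) at 70.3, F49C5.t4 (lysine, in nimk-1) at 69.9, Y105C5B.t1 (aspartate, in srv-16) at 68.0 and C52G5.t1 (valine) at 67.4. Just inside the limit was K03B8.t1, a valine gene at 48.8 and an IDR of 0.00981. The limit therefore did not sort genes by signal: K03B8.t1 counted as having a site and F33G12.t1, with a higher signal, did not.

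Of the 14 hosts with 3 or more nested tRNA genes, 3 are described here, and only 1 site lay among their nested genes. They do not stand for all 14. In srv-16, Y105C5B.t2 and Y105C5B.t3 shared a site of 73.9 and Y105C5B.t1 had a sub-threshold peak of 68.0. K01A12.3 holds 5 tRNA genes, for arginine and cysteine, of which none had a site. K01A12.t4 had a sub-threshold peak of 31.8, and K01A12.t2 and K01A12.t3 shared another of 40.2. The junction gene ajm-1 holds 5 glutamine genes, of which H08J11.t3 had a site of 61.4, with 29.1 and 35.4 in the replicates, while H08J11.t5 and H08J11.t1 shared a sub-threshold peak of 43.9 and the other 2 had none. pash-1, which encodes the partner of Drosha in microRNA processing, holds 3 glycine genes with no peak. In these 3, with their flanks, 31-mers found once in the genome made up 49.8%, 27.3% and 0%, all below the lowest value at genes with a site, and the part of this in the lack of a peak was not tested.

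Nested genes with a site lay in shorter hosts and shorter introns at the median, and about midway along the host like the others. Median host length was 4750 bp for genes with a site, 6128 bp for genes with a sub-threshold peak and 5869 bp for genes with neither, and the median intron was 353, 420 and 654 bp. In the same order, genes lay at a median of 52.0%, 49.5% and 47.2% of the way along the host. The hosts themselves had a site in the window of 1000 bp upstream to 200 bp downstream of a 5′ end in 8 of 51 cases (15.7%, interval 7.02 to 28.6) where a nested gene had a site, and in 6 of 177 (3.39%, interval 1.25 to 7.23) where none had. At 4 of the 8 that promoter site was the nested site itself. Over all protein-coding genes the share was 4.42%.

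The B box letters were present at nearly all nested genes, whatever their peak. They were found in 279 of 290 (96.2%), against 1.37% of 22881 host windows of 73 bp on the same strand as read, or 2.78% on either strand. A box letters were found in 137 (47.2%), against 3.78% or 7.19%, with 42.9% at genes with a site, 50.7% at genes with a sub-threshold peak and 44.0% at genes with neither. The A box letters are a fixed pattern, so a gene without a match may still hold an A box that differs from them. A run of TTTT lay within 40 bases after the gene in 288 (99.3%), against 42.2%. B box letters were present in 98.2% of genes with a site, 95.3% of genes with a sub-threshold peak and 96.4% of genes with neither, so they did not separate these groups. The letters of the A box and B box do not overlap in a gene. Outside tRNA genes had them in 40.7% and 95.7% of cases.

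The listed genes of RNA polymerase III transcription had no site, and they are too few to set apart from other genes. None of 12 listed genes, which encode polymerase III subunits, TFIIIB and TFIIIC parts, SNPC-4 and the repressor MAFR-1, had a site in that window at its 5′ end (0%, interval up to 26.5), against 4.42% of protein-coding genes. Sub-threshold peaks were present at 6 of them (50%, interval 21.1 to 78.9), against a ranked peak at 38.6% of protein-coding genes: rpc-1 (35.8), rpc-2 (38.5), rpc-25 (24.9), rpac-19 (47.0), brf-1 (21.0) and mafr-1 (12.4). The highest of these, at rpac-19, was close to the median of 44.0 at nested genes with a sub-threshold peak and had an IDR of 0.755.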

How the data were processed

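LIR-1 ChIP-seq peaks of 2 libraries of 1 group were analysed. Per the labels, coordinates are on ce11, which is WBcel235. The deposited peak lists give a score per peak (signal, the authors' caller's own value) and a summit, and the ranked lists also give −log10 of the IDR, per the values deposited by the authors. Neither the aligner, the caller nor the handling of multiply matching reads is given in the labels or headers. The control alignment was not analysed here.

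Nested genes, hosts and windows came from Ensembl release 115, sequences and amino acids from RefSeq (all 290 genes matched by place). Summits were placed in genes widened by 100 bp. Copies are tRNA genes of identical sequence over the annotated length, so a nearly identical gene counts as unique. Identical copies share reads, and intervals cover counting error only. With 1 group no test between conditions was possible, no p-value was computed, and the replicates' own lists were counted beside the main shares. The rule that assigns summits to genes was checked as code on summits planted at tRNA genes far from any other. Close pairs and summit positions within the gene were not checked in this way. The genes named are the 20 strongest sites, the 6 strongest sub-threshold peaks, up to 4 copies of the 3 largest families, 3 hosts with several genes, members of classes with 5 or fewer sites, and 12 polymerase III genes. The members and lists were chosen with earlier results of these data known. Alternatives were the other series set, stronger sites, each replicate's list, other distances, an IDR of 0.05 and counting each sequence once. Python 3.11.15, numpy 2.4.6, pandas 2.3.3 and scipy 1.17.1 were used.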

Additional observations from a re-analysis of the deposited data

How the results depend on the processing

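Of 153 recomputed values, 103 stayed within the interval or spread of the value reported. Of the 153, 66 were shares by chromosome, and 54 of them stayed, within wide intervals on 31 to 96 genes. Among the 87 other values, 49 stayed. For summit position and signal, the spread was the standard deviation of the values with either replicate left out (9.19 bases and 3.73). Among the stronger 50% of sites the shares were 7.93% of nested genes, 11.2% of outside genes, 7.83% on the host strand, 8.13% opposite to it, 1.47% of unique nested genes and 9.91% of nested genes with copies, and the median signal was 103. At an IDR of 0.05 they were 29.7%, 30.1%, 27.7%, 32.5%, 19.1% and 32.9% in the same order, with a signal of 73.3. With each distinct sequence counted once, nested stood at 29.2%, outside at 34.6%, the host strand at 26.4%, opposite at 32.3% and sequences with copies at 59.6%, since 1 copy with a site then counts for the whole family. With the summit inside the gene, nested stood at 14.1%, outside at 13.7%, nested with copies at 16.7% and sub-threshold only at 29.3%, and sub-threshold only was 58.3% within 200 bp. In the other thresholded set the median signal was 86.3.

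With 1 replicate left out, the share ran from 9.66% to 10.7% for nested genes, 9.94% to 14.3% outside, 10.2% to 10.8% on the host strand, 8.13% to 11.4% opposite and 11.3% to 12.6% with copies. The median summit position ran from 6 to 19, and the median signal from 46.0 to 51.2. The replicate lists have their own scale and threshold. Unique genes stood below genes with copies in 10 of 10 alternatives. Opposite stood above the host strand in 11 of 12, the exception being without replicate 2. Nested stood below outside in 10 of 12, the exceptions being the summit inside the gene and without replicate 1. X was the highest in 7 of 11. Most of these alternatives recount sites of the same conservative set, so the tallies do not stand for separate measurements. The lists of the single replicates put the strands in different orders. No paired analysis was possible because there was 1 group. The cause of these moves was not tested. Depth is unknown, so a gene with no peak is a gene with none listed.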

Other observations

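Tryptophan tRNA genes that are known by suppressor mutations were among the nested genes, and they are named here after their values were seen. The amber suppressor locus sup-7 (in C03B1.2) had a site of 76.4, with 35.3 in replicate 1 and 44.2 in replicate 2. Its copy sup-5, in the actin-regulator gene fli-1, had 86.7, with 39.8 and 39. Both have the same gene sequence as sup-28 and sup-33, which lie in the receptor gene trk-1 and had no peak in the ranked list, and as rtw-6 in daf-42, which had a sub-threshold peak of 37.5. As for other identical copies, which of them holds a site is uncertain.

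In 7 cases a nested gene was in the thresholded list of 1 replicate without having a site. F33G12.t1, W06D4.t1 and C52G5.t1 were in the list of replicate 1, with 42.8, 44.0 and 45.9 there and 28.1, 24.5 and 22.0 in replicate 2. K11H12.t1, a selenocysteine gene, and F49D11.t1 were in the list of replicate 2, with 46.1 and 46.0 there and 16.9 and 17.8 in replicate 1. F49D11.t2 and F17H10.t1 were also in the list of replicate 2, with no peak in the ranked list of both libraries.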
